A study of Rattus norvegicus with 2 samples.

Results

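The genes described here encode the core of the PI3K, Akt and FOXO pathway in cultured rat keratinocytes: the docking protein gene Irs2, the PI3K subunit genes Pik3r1, Pik3r3, Pik3ca and Pik3cb, the kinase genes Akt1 and Akt2, and the transcription factor genes Foxo1 and Foxo3. They were selected from a fixed list of symbols that had a named probe, and 9 of the 9 listed symbols had one, among 15037 named genes on the array. The measured difference between the arrays was known when the list was drawn up, so the differences of these 9 genes are given as a description and nothing is tested on them. Gene expression was measured in epidermal keratinocytes of newborn rats, grown in serum-containing medium with hydrocortisone. The control was represented by 1 array. The other array carried cells transfected with a pair of siRNAs (siTet2/3), one to Tet2 and one to Tet3, each used at 1 µM and delivered with a lipid reagent. Both cultures then received vitamin C for 12 h, beginning 24 h after transfection, and no array without vitamin C was used here. The control is titled NC, an abbreviation the labels do not spell out, and is described as non-treated; what it received in place of the siRNAs is not said further, and the number of animals behind each culture is not stated either.

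Class IA PI3K is a lipid kinase made of a catalytic and a regulatory subunit. Receptors for insulin, IGF1 and other growth factors recruit it through docking proteins such as IRS2, and its lipid product brings Akt to the membrane, where Akt is activated. Akt phosphorylates FOXO transcription factors, which then leave the nucleus, so FOXO targets such as cell cycle inhibitors and stress defence genes are kept low while the pathway is active; in keratinocytes the pathway supports survival and growth. TET enzymes oxidise methylated cytosine in DNA, mostly at CpG dinucleotides.

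All values are deposited log2 signals, and differences are siTet2/3 minus control. With 1 array per group no difference has a replicate check or a p-value, and "higher" and "lower" refer to these 2 arrays alone. In place of a replicate error, each difference is set beside the local spread, a robust SD of the differences over genes of similar level on the same arrays, which holds true differences as well as noise. A gene was counted as higher or lower when it differed by at least 1.5-fold (0.58 on the log2 scale) and its higher value lay above 5.04 log2 units, a background floor taken from chemoreceptor genes. Of 8103 genes above that floor, 8.63% were higher and 13.2% were lower by this limit, and their median difference was -0.05. In counts this was 699 higher and 1070 lower genes, or 845 and 899 when the differences were centred on their median and 829 and 907 when a trend with level was taken out, so the surplus of lower over higher genes shrank under either scaling. The 9 genes lay above the floor on both arrays, each with 1 probe. Of the 9 keratinocyte markers with a named probe, 9 lay above the floor and 0 passed the 1.5-fold limit. Of 38 named markers of fibroblasts, melanocytes, endothelium, immune, Merkel, muscle and fat cells, 4 lay above the floor. Of these, the lipase gene Lpl was lower (7.41 log2 units in control cells and 6.28 in siTet2/3 cells). The endothelial marker gene Tek had the highest signal of the 4 (9.66 and 9.25) and did not pass the limit. Mitf and Cd68 lay close to the floor. The part of these genes in the results was not tested. Tet1, Tet2 and Tet3 had 0 named probes, and the depth of the knockdown was not analysed here.

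Among the 9 genes, the largest differences lay in PI3K subunits and not in Akt or FOXO genes. By the 1.5-fold limit 3 of the 9 were higher in siTet2/3 cells, the regulatory subunit genes Pik3r3 and Pik3r1 and the catalytic subunit gene Pik3cb, beside the 8.63% of all genes above the floor. 1 of the 9, Akt2, was lower by the same limit, beside the 13.2% of all genes. The other 5 did not pass the limit, and 5 of the 9 differences were above 0 and 4 below 0. The contrast chose the genes, so these shares carry no weight as evidence.

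**Figure D1:**
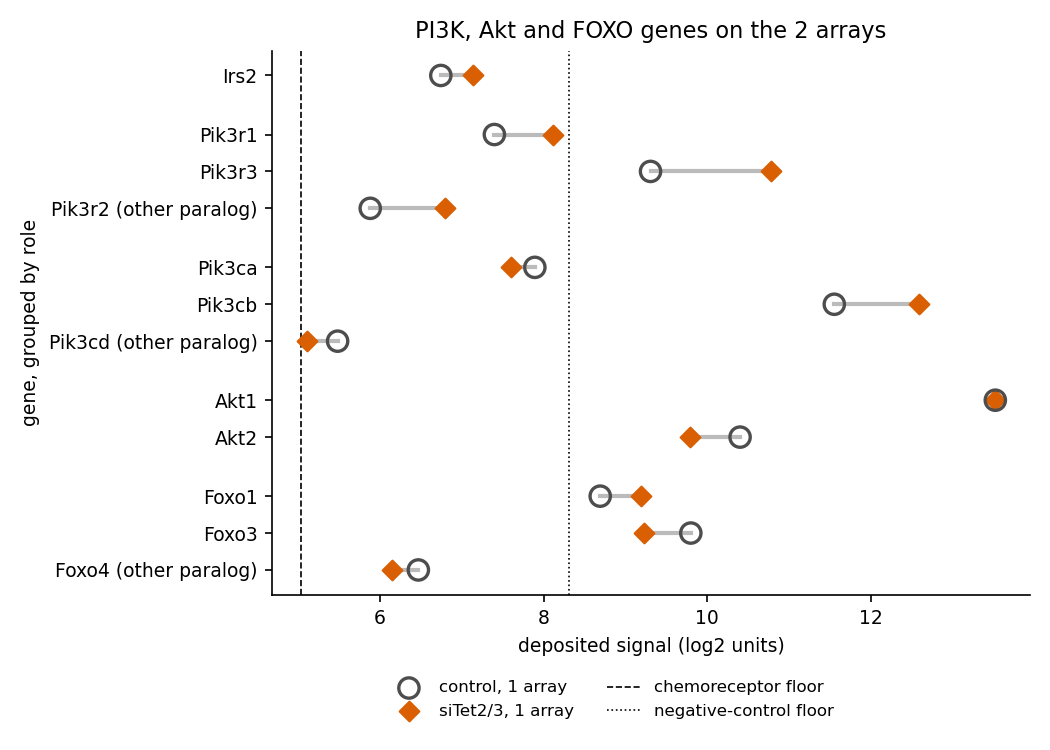
Deposited log2 signal (x axis) of each gene on the control array (open circles) and the siTet2/3 array (diamonds), grouped by role on the y axis, with 3 paralogs outside the list of 9 added; each point is 1 array. Dashed and dotted lines mark the background floors of 5.04 and 8.31 log2 units; Pik3r3 and Pik3cb show the widest gaps, and the Akt1 points coincide.

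The regulatory subunits hold the catalytic subunit stable and inactive until a phosphorylated receptor or docking protein binds them. Pik3r3, which encodes the short regulatory subunit p55-gamma, read 9.31 log2 units in control cells and 10.78 in siTet2/3 cells. This is a difference of 1.48, or 2.79-fold, against a local spread of 0.44, and it ranked 24 of 8103 genes counted from the highest difference. Pik3r1, which encodes p85-alpha and shorter forms made from other start sites, read 7.40 and 8.11, a difference of 0.71 (1.64-fold) against a local spread of 0.48. Both Pik3r1 values lay under 8.31 log2 units, the level that 95% of negative-control probes stay under, so its signal was inside the range that such probes reach. The array does not tell the forms of Pik3r1 apart in this table, since the gene had 1 value per array. The remaining class IA regulatory gene, Pik3r2 (p85-beta), was outside the list of 9; it read 5.88 and 6.79, a difference of 0.91 (1.88-fold) against a local spread of 0.52, also below 8.31 on both arrays. The 3 regulatory subunit genes of class IA were each higher by the limit, beside 8.63% of all genes above the floor. Pik3r1 and Pik3r3 were listed with the contrast known, and of the 3 genes only Pik3r3 lay above 8.31 log2 units.

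Because TET enzymes act on methylated CpG, the windows around the listed gene starts of these 3 regulatory subunit genes are shown, each from 250 bases before to 50 bases after the start, taken from RefSeq on build GRCr8. CpG dinucleotides are in capitals. Pik3r3 lies at chr5:134938356-134938655 on the plus strand, Pik3r1 at chr2:34697611-34697910 on the minus strand and Pik3r2 at chr16:18699247-18699546 on the plus strand.
Pik3r3: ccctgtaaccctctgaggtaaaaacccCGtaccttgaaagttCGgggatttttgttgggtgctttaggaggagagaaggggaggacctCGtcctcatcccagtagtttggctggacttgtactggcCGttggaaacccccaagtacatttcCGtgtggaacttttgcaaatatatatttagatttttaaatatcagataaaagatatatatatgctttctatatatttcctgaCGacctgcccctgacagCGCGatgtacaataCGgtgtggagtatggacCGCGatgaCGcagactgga
Pik3r1: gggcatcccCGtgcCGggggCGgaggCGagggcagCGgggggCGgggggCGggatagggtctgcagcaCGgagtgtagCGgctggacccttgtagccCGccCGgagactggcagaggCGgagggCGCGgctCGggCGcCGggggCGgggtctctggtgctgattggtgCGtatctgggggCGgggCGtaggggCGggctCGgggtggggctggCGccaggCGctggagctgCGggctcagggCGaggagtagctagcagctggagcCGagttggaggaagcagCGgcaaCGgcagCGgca
Pik3r2: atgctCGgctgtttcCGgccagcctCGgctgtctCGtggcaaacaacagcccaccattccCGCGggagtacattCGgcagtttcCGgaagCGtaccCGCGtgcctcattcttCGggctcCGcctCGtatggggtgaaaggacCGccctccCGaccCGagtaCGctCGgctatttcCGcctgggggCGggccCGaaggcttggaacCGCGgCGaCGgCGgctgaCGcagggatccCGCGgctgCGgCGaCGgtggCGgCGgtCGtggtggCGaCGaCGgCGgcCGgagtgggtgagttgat
The window of Pik3r3 holds 12 CpG, that of Pik3r1 31 and that of Pik3r2 41, where the 6839 matched windows of genes above the floor have a median of 22 and quartiles of 14 and 29. The 3 windows thus did not share one CpG density, and those of Pik3r1 and Pik3r2 lay above the upper quartile. Among genes above the floor, the median was 20 CpG for those at least 1.5-fold higher and 21 for those lower. A link between CpG count and the differences was not tested. In Pik3r3 an ATG with a frame open to the end of the window begins at base 5 counted from the listed start. That start may thus be a coding start and the window may not be the promoter of Pik3r3, so its CpG count describes the window alone. Whether the listed start is the transcription start was not tested. DNA methylation was not measured in these samples.

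Windows were found for 6 of the 9 genes, and not for Pik3cb, Foxo3 and Irs2. Besides Pik3r3 and Pik3r1, Foxo1 had 49 CpG, Akt1 9, and Akt2 and Pik3ca 3 each. The core FOXO binding letters GTAAACA, searched on both strands, occurred in 1 of the 6, Pik3ca, on the opposite strand with its first base at position -157 from the listed start. That start coincides with an ATG. The letters occur in 3.78% of all 33469 windows and in 2.21% of those of genes above the floor.

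The catalytic subunits phosphorylate the membrane lipid and differ in the signals they answer to. Pik3cb, which encodes p110-beta and can also be driven by G protein-coupled receptors, read 11.55 log2 units in control cells and 12.59 in siTet2/3 cells. The difference was 1.04 (2.06-fold) against a local spread of 0.41, and it ranked 121 of 8103 from the highest. Pik3ca, which encodes p110-alpha, the main partner of insulin and growth factor receptors, read 7.89 and 7.60, a difference of -0.30 that is smaller than the local spread of 0.48. Both Pik3ca values lay below 8.31 log2 units. The leukocyte-enriched Pik3cd, outside the list of 9, read 5.48 and 5.10, close to the floor. The catalytic genes therefore did not share a direction, with Pik3cb past the limit and Pik3ca and Pik3cd not.

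Other PI3K classes act mainly on membrane traffic. The class III gene Pik3c3, whose product makes the lipid that starts autophagosome formation, read 6.41 and 7.03 (1.53-fold higher). The class II genes did not pass the limit: Pik3c2a read 10.73 and 10.89, Pik3c2b 6.67 and 6.81, and Pik3c2g 5.79 and 5.33. The class IB regulatory genes Pik3r5 and Pik3r6 lay below the floor on both arrays. In all, 12 of 14 listed PI3K subunit genes had a named probe and 10 lay above the floor. Of these, 5 were higher, 0 were lower and 5 were neither, beside 8.63% higher and 13.2% lower of all genes above the floor. The higher genes Pik3r1, Pik3r3 and Pik3cb belong to the 9 genes, which were listed with the contrast known. The median difference of the 10 subunit genes was 0.39. That median was 0.15 with no floor, 0.66 with a floor 1 log2 unit higher and 1.04 with the negative-control floor of 8.31. Without the 4 subunits that belong to the 9 genes, 2 of 6 were higher and 0 lower, with a median of 0.15 beside -0.05 over all genes above the floor.

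Upstream of PI3K, Irs2, which encodes the docking protein that links the insulin and IGF1 receptors to PI3K and is itself a FOXO target, read 6.74 log2 units in control cells and 7.13 in siTet2/3 cells. The difference of 0.39 is smaller than the local spread of 0.48, and both values lay below 8.31. Of the 26 receptor, ligand, docking and adaptor genes listed, 21 had a named probe and 12 lay above the floor. Of these, 1 was higher, 3 were lower and 8 were neither, beside 8.63% higher and 13.2% lower of all genes above the floor. The list median was -0.01. The gene counted as higher was Cblb, a ubiquitin ligase gene (1.63-fold). The lower ones were Socs3, a feedback inhibitor of cytokine and insulin signalling (at least 2.08-fold, from 6.10 log2 units to below the floor), Sh2b2, a receptor adaptor gene (1.75-fold), and the IGF1 receptor gene Igf1r (1.61-fold; 8.44 and 7.76 log2 units).

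The Akt kinases carry the signal on from PI3K. Akt1, the isoform tied to survival and growth in most tissues, read 13.52 log2 units on both arrays, where the local spread was 0.32. Akt2, the isoform tied to glucose uptake, read 10.40 and 9.79, a difference of -0.61 (1.52-fold lower) against a local spread of 0.44. This difference stood at the limit: after centring on the median difference it was 1.47-fold, and 1.46-fold once a trend of the difference with level was removed. The isoforms thus stood apart, with Akt1 the same on both arrays and Akt2 lower.

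**Figure D2:**
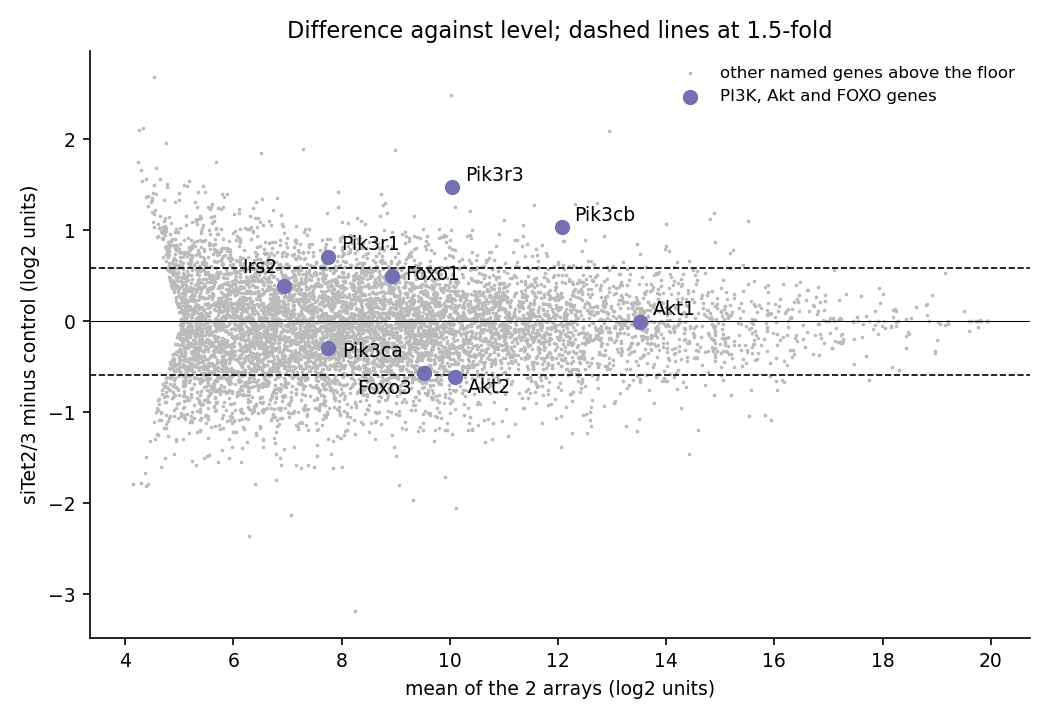
Difference siTet2/3 minus control (y axis, log2 units) against the mean of both arrays (x axis, log2 units) for 8103 named genes above the floor, with the 9 pathway genes as large points; dashed lines mark 1.5-fold. Pik3r3 (1.48) and Pik3cb (1.04) lie at the upper edge of genes of their level, Akt1 lies at 0, and Foxo3 (-0.57) and Akt2 (-0.61) lie side by side at the lower line.

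Among 24 listed genes of Akt isoforms, activating kinases and Akt partners, 20 had a named probe and 16 lay above the floor. Of these, 0 were higher, 4 were lower and 12 were neither, beside 8.63% higher and 13.2% lower of all genes above the floor. The list median was -0.16. Besides Akt2, the lower genes were Trib3, a pseudokinase gene whose product binds Akt (1.75-fold), Appl2, an endosomal adaptor gene (1.74-fold), and Cdc37, which encodes the chaperone partner that hands kinases to HSP90 (1.73-fold; 13.54 and 12.75 log2 units). Phosphatases that remove PI3K lipids or dephosphorylate Akt were described by 20 genes above the floor. Of these, 0 were higher, 4 lower and 16 neither, beside the same shares of all genes, with a median of -0.08. The lower ones were the inositol phosphatase genes Inpp5b (2.02-fold) and Inpp4a (1.94-fold), the synaptojanin gene Synj1 (1.77-fold), and Ppp2r2a, a regulatory subunit gene of protein phosphatase PP2A (1.58-fold; 14.35 and 13.69 log2 units). Inpp5b and Inpp4a lay below 8.31 log2 units on both arrays. Phlpp1, whose product dephosphorylates Akt, differed by 0.53 and passed the limit only once differences were centred or the level trend was removed (1.51-fold with the latter). Rictor and Foxo6 had no named probe and were not analysed here.

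Of 26 Akt substrate and mTORC1 genes above the floor, 2 were higher, 3 were lower and 21 were neither. Over all genes above the floor 8.63% were higher and 13.2% lower. The list median of -0.02 became 0.03 after centring. The higher ones were Chuk, which encodes the IKK-alpha kinase (1.61-fold), and Pdcd4, an inhibitor of translation (1.57-fold; 13.87 and 14.52 log2 units). The lower ones were the glycolysis regulator gene Pfkfb2 (1.72-fold), the translation repressor gene Eif4ebp1 (1.55-fold) and the cell cycle inhibitor gene Cdkn1a (1.55-fold). Eif4ebp1 and Cdkn1a were each 1.49-fold lower after centring, which left them just short of the limit, but stayed just past it when the level trend was removed, so both stood at the limit.

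**Figure D3:**
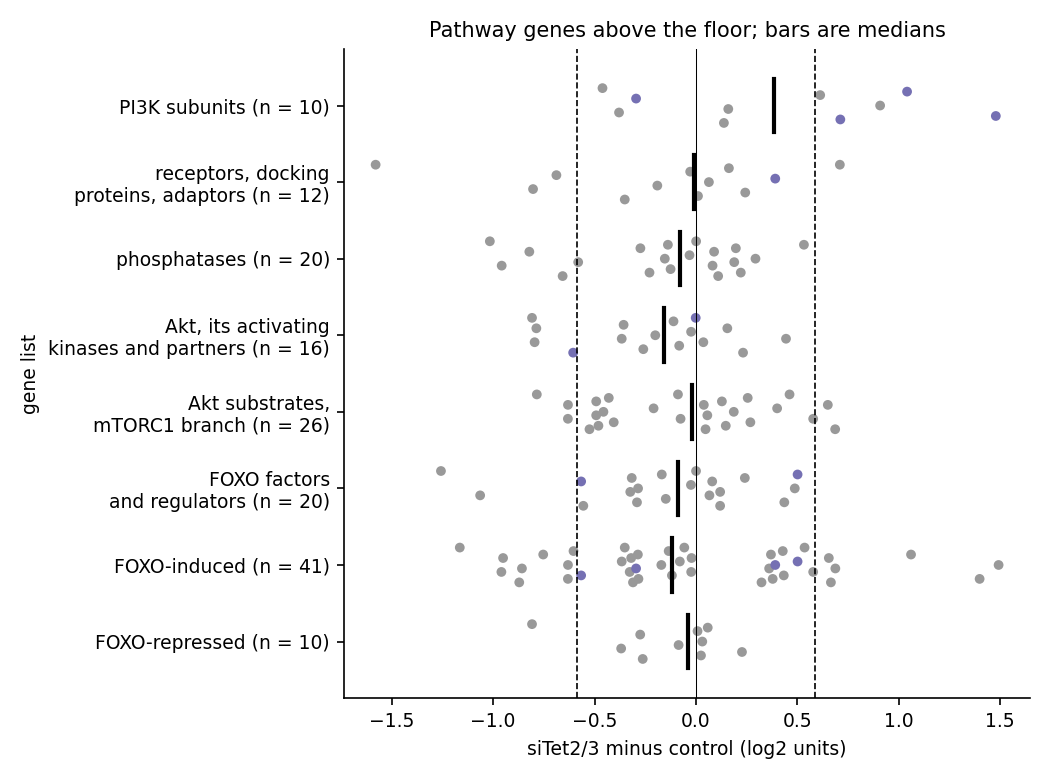
Difference siTet2/3 minus control (x axis, log2 units) of every gene above the floor in each of 8 pathway lists (y axis, n genes); violet points are genes of the 9, black bars are list medians and dashed lines mark 1.5-fold. The PI3K subunits have the highest median (0.39), and the other medians lie between -0.16 and -0.01.

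The FOXO factors stood on opposite sides of 0. Foxo1 read 8.69 log2 units in control cells and 9.19 in siTet2/3 cells, a difference of 0.50 (1.41-fold) against a local spread of 0.41. Foxo3 read 9.80 and 9.23, a difference of -0.57 (1.48-fold) against a local spread of 0.42. Neither passed the 1.5-fold limit, and neither did so after centring, at 1.47-fold for Foxo1 and 1.43-fold for Foxo3. Foxo4, on the X chromosome and outside the list of 9, read 6.47 and 6.15. Together with their regulators, 20 genes lay above the floor, of which 0 were higher, 2 lower and 18 neither. This stands beside 8.63% higher and 13.2% lower of all genes above the floor. The list median was -0.09. The lower ones encode kinases that phosphorylate FOXO factors: Cdk2, the S phase kinase gene, read 11.70 and 10.44 log2 units (2.39-fold), and Nlk, the nemo-like kinase gene, read 10.37 and 9.30 (2.09-fold).

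Known FOXO-induced genes went both ways. Of 53 listed genes, 50 had a named probe and 41 lay above the floor. Of these, 6 were higher, 9 lower and 26 neither, beside 8.63% higher and 13.2% lower of all genes above the floor. The list median was -0.12. The balance of the list turned with the scaling: 8 of its genes were higher and 6 lower after centring, and 7 and 8 with the level trend taken out. With the negative-control floor of 8.31 log2 units, 1 was higher and 6 were lower, with a median of -0.29. Of the higher genes only Sesn3 lay above that floor. Without the 4 that belong to the 9 genes the counts were again 6 and 9, of 37. Among the higher ones, Sesn3, which encodes a sestrin that restrains mTORC1, read 9.38 log2 units in control cells and 10.87 in siTet2/3 cells (2.81-fold). Selenop, a selenium transport protein gene, read 5.08 and 6.48 (2.64-fold). The ubiquitin ligase gene Trim63 was at least 1.53-fold higher and the autophagy gene Atg14 at least 1.44-fold, both from below the floor on the control array. With values below the floor raised to it, Atg14 was short of the limit and 5 genes were higher. Among the lower ones, Fbxo32, which encodes the ubiquitin ligase atrogin-1, read 10.03 and 8.86 (2.24-fold). The pocket protein gene Rbl2 was 1.94-fold lower, the autophagosome gene Map1lc3b 1.93-fold (14.75 and 13.80 log2 units) and the repressor gene Bcl6 1.83-fold. The muscle ubiquitin ligase genes Fbxo32 and Trim63, which FOXO factors are known to induce together in muscle, thus lay on opposite sides. Of 10 FOXO-repressed genes above the floor, 0 were higher and 1 was lower, beside the same shares of all genes, with a median of -0.04. The lower gene, Trib3, also stands among the Akt partners. Cdkn1a and Eif4ebp1, lower among the Akt substrates, are likewise counted among the lower FOXO-induced genes. Over the 8 lists, 12 genes stand in more than 1 list, so the list counts are not separate observations. Of the pathway genes named here outside the list of 9, Pik3cd, Pik3c2b, Pik3c2g, Pik3c3, Cblb, Socs3, Sh2b2, Trib3, Appl2, Foxo4, Selenop, Trim63, Atg14, Rbl2 and Phlpp1 lay below 8.31 log2 units on both arrays, besides those for which this is stated above.

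**Figure D4:**
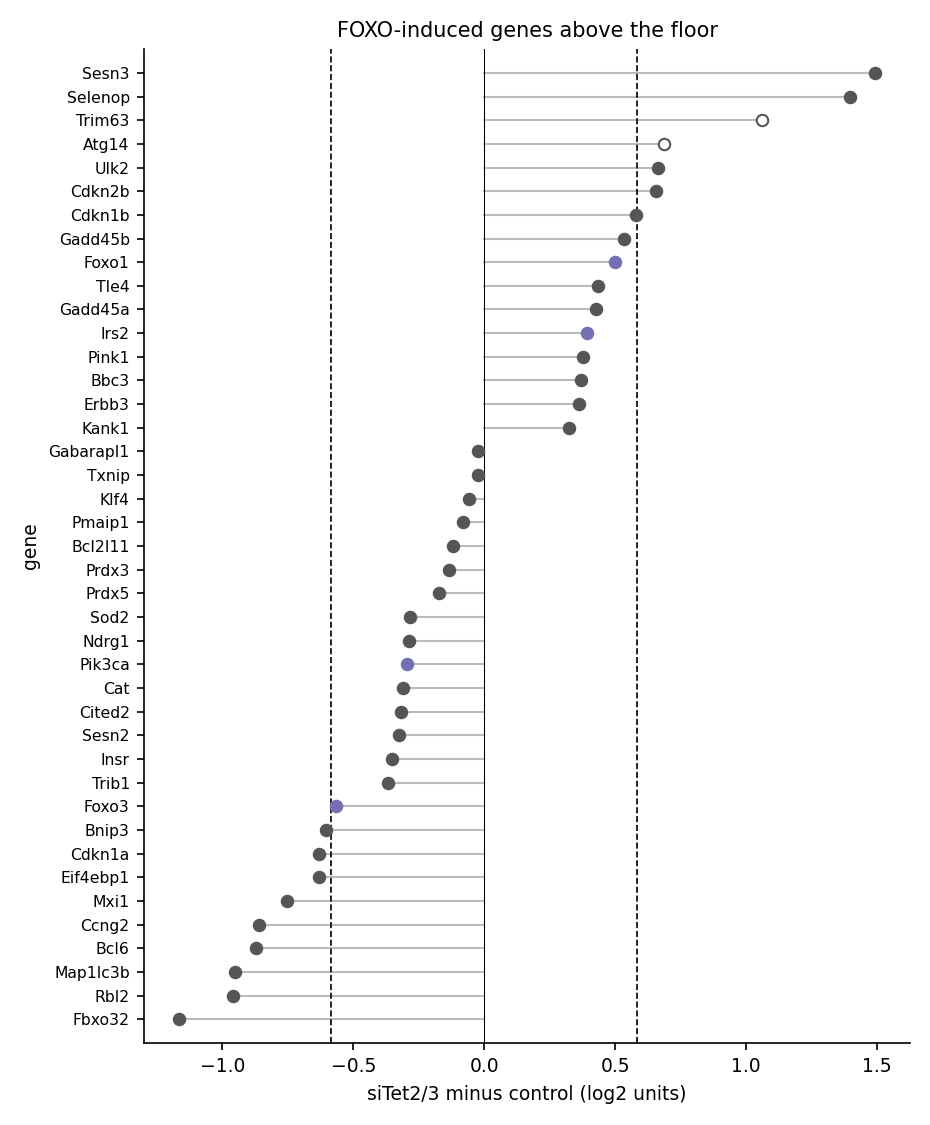
Difference siTet2/3 minus control (x axis, log2 units) of the 41 FOXO-induced genes above the floor (y axis), ordered by difference; violet points belong to the 9 genes, open points were below the floor on 1 array, and dashed lines mark 1.5-fold. 6 genes lie past the upper line, led by Sesn3 and Selenop, and 9 past the lower line, led by Fbxo32 and Rbl2.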

How the data were processed

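Biotin-labelled cDNA of each culture was hybridised to 1 whole-transcript array. The authors deposited 1 table of log2 signals, with a value for each probe set and array; the submitters' processing notes name RMA and the Transcriptome Analysis Console, without versions. RMA brings arrays to a common distribution, so a difference in total RNA per cell cannot show. Deposited values ran from 1.36 to 19.93, an upper end above what RMA alone usually gives, so folds are those of the deposited scale; scanner signals were not used here. Of 23188 gene probes, 15049 had 1 symbol in the platform annotation, 0 had several and 8139 had none; probes of a gene were averaged. The genome build behind the probes is not given in the sources used here.

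The 9 genes and the pathway lists were chosen with earlier results of these data known. The floor is the 95th percentile, over 1206 chemoreceptor genes, of the higher of the 2 values. The local spread is the scaled median absolute deviation of the differences in 1 of 20 equal bins of mean level. Counts and medians were computed with Python 3.11.15, numpy 2.4.6 and pandas 2.3.3, and the level trend with statsmodels 0.14.6. The procedure was tested on simulated data. Genes were named by a rule: the 9 genes, every PI3K, Akt and FOXO paralog, and up to 4 genes per list and direction. The latter had the largest differences past the limit in each list. Lpl, Tek, Mitf, Cd68 and Phlpp1 were named after their values were seen. Alternatives were other floors, values raised to the floor, centring, a lowess trend (span 0.3), the brightest probe, a 2-fold limit, means and lists without the 9 genes. The number of arrays limits the precision of every value.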

Additional observations from a re-analysis of the deposited data

How the results depend on the processing

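Among the 9 genes, 3 were also higher with centring or with the level trend removed, and 2 with the negative-control floor or a 2-fold limit. The brightest probe, no floor, a floor 1 log2 unit higher and values raised to the floor could not change this count, since each of the 9 genes has 1 probe and lies above those floors. The count of lower genes went from 1 to 0 with centring, removal of the trend or a 2-fold limit, since Akt2 lay at the limit. Over all genes, 699 higher and 1070 lower became 845 and 899 with centring, 829 and 907 with the trend removed, 1684 and 1690 with no floor, 248 and 453 with the negative-control floor, and 147 and 247 at 2-fold. The 5 higher PI3K subunits became 2 with the negative-control floor, at 2-fold or without the 9 genes; with no floor 2 subunits were lower, and the median of 0.39 became 0.15, or 0.66 with a floor 1 log2 unit higher and 1.04 with the negative-control floor. The 6 higher and 9 lower FOXO-induced genes became 8 and 6 with centring and 7 and 8 with the trend removed. They became 5 and 9 with values raised to the floor, and 3 and 1 at 2-fold. With the negative-control floor 1 was higher and 6 were lower, and the median was -0.29. The 3 lower Akt substrates became 1 with centring but were again 3 in number with the trend removed. The 4 lower phosphatases and the 4 lower Akt partners each became 2 with the negative-control floor, and 1 and 0 at 2-fold. The 3 lower upstream genes became 1 under either setting. No paired analysis was possible because each group has 1 array. Signals of 3 of the 9 genes, Pik3r1, Pik3ca and Irs2, lay on both arrays inside the range of negative-control probes, which limits how firmly their differences can be read.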
